A study of Mus musculus with 6 samples.

Results

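The genes described here are 9 mouse acyl-CoA thioesterases, Acot1, Acot2, Acot3, Acot4, Acot7, Acot8, Acot9, Acot12 and Acot13, out of 41838 genes with a level in liver RNA. They were taken by gene name from the family and chosen by their measured FPKM in these same knockout and control libraries, so their differences between groups are a description and no independent support for any pattern. All 9 had a mean of at least 1 FPKM (fragments scaled to gene length in kilobases and to library size) and were tested. The member with the lowest mean over all libraries was Acot9, at 1.64 FPKM, and of the family genes outside the set Acot11 was the highest, at 0.515 FPKM. The samples were livers of 3 Alkbh5-HKO mice, whose genotype the sample labels write as Alkbh5-CKO, and of 3 Alkbh5flox/flox mice, which carry the floxed gene, called HKO and flox below. ALKBH5 is an eraser of N6-methyladenosine, a methyl mark on RNA. Mice of both groups were 9 weeks old, per the series text, and the labels speak of normal chow. The sources used here do not give the promoter that drives the recombinase, the sex of the mice or their feeding state at collection.

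Acyl-CoA thioesterases split a fatty acyl-CoA, or a shorter CoA ester, into the free acid and coenzyme A, the reverse of the step that acyl-CoA synthetases catalyse. In mouse, ACOT1, ACOT7 and ACOT12 work in the cytosol, ACOT2 and ACOT9 in mitochondria, and ACOT3, ACOT4 and ACOT8 in peroxisomes, while ACOT13 is associated with mitochondria. The enzymes fall into structurally unrelated types, and Acot1 to Acot6 form a cluster of related genes. In rodent liver the cluster is known for its induction by fasting and by ligands of the fatty acid receptor PPAR-alpha.

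The cluster spans 121923 bases of chromosome 12 (83987861 to 84109783, GRCm38.p6), in the order Acot2, Acot1, Acot4, Acot3, Acot5 and Acot6, all on the plus strand. The coding sequences of Acot1 and Acot2 were identical at 95.55% of their aligned bases, and their longest identical run was 273 bases, which is longer than a read of 150 bases. Acot1 and Acot3 were identical at 84.0% of aligned bases, with a longest run of 203 bases, and Acot1 and Acot4 at 74.1%, with a longest run of 108 bases. The stretches below, from GENCODE M21 transcripts, show where a read can and cannot tell Acot1 from Acot2. The first pair is the ungapped stretch of 120 coding bases with the most differences, 14, which are in capitals (Acot1 coding bases 767 to 886, Acot2 coding bases 890 to 1009).
Acot1: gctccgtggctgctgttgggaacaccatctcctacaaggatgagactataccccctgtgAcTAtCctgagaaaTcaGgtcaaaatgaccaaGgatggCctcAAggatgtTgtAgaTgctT
Acot2: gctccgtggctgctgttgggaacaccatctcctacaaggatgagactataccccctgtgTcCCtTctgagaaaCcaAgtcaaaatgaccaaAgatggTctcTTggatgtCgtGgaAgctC
The last stretch lies in the middle of the longest identical run (Acot1 coding bases 963 to 1082) and is the same in both genes.
Acot1 and Acot2: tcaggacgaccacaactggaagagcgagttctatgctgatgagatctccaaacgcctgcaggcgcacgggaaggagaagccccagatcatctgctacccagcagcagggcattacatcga

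Of the 150-base windows of the longest coding transcript, 12.4% in Acot1, 10.2% in Acot2, 13.5% in Acot3 and 7.73% in Acot4 also occurred in a transcript of another gene. For Acot2 the other gene was Acot1, and for Acot4 it was 4732463B04Rik, which does not overlap Acot4 in the deposited annotation. Acot8 shared 9.47% of its windows, with Snx21, which overlaps it on the opposite strand by 1043 bases in the deposited annotation. Acot7, Acot9, Acot12 and Acot13 shared 0.0%. These transcripts are not the counted gene models, with Acot1 at 2272 bases against a deposited length of 1559 and Acot4 at 6203 against 3596. The windows stand for single reads, while the libraries were read as pairs, so the shares are not shares of counted reads. The sources used here do not say whether reads with several matches were counted, so levels of single genes among Acot1 to Acot6 are uncertain by reads that relatives share. Reads summed over the cluster, given further on, do not depend on how shared reads were split within it, but do on whether they were counted. Those sums also depend on how reads shared with genes outside the cluster were assigned, since 4732463B04Rik also shared windows with Acot1 and Acot3.

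The upstream sequences of Acot1 to Acot4 are shown because these neighbours all had lower means in HKO livers. Each is the 250 bases before a RefSeq transcript start on the plus strand of chromosome 12, GRCm38.p6. These windows lie at chr12:84009252-84009501 for Acot1, chr12:83987611-83987860 for Acot2, chr12:84051894-84052143 for Acot3 and chr12:84038129-84038378 for Acot4. The deposited Acot4 gene starts earlier than its window, at 84037428, so this window lies inside the counted gene. The Acot3 window runs past the deposited Acot3 start, at 84052001. Capitals mark the motif CCAAT and the repeat that PPAR-alpha and its partner bind, AGGTCA and again AGGTCA with 1 base between, on either strand and with up to 2 mismatches allowed in the repeat.
Acot1: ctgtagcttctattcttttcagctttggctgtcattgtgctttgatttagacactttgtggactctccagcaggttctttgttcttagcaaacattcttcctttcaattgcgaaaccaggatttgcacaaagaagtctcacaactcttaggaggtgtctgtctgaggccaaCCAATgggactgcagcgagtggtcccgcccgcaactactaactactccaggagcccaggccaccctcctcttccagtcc
Acot2: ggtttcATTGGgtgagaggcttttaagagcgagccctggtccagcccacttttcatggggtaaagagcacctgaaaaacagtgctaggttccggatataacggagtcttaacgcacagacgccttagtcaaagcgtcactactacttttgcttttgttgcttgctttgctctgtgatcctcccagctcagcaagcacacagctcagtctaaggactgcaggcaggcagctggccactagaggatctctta
Acot3: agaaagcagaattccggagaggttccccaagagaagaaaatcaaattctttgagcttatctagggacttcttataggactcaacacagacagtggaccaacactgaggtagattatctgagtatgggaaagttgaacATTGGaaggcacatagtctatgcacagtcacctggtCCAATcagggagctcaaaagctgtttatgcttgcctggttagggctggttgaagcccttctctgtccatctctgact
Acot4: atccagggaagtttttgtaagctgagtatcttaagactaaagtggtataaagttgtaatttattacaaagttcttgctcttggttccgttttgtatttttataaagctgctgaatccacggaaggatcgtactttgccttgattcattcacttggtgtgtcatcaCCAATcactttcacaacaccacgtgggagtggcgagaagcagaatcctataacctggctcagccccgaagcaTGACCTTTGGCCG
CCAAT stood in the windows of all 4, and in 33.8% of 32851 RefSeq upstream windows of this length. The repeat was matched in Acot4, at positions -13 to -1 from its RefSeq start and inside the deposited gene. It was not matched in these windows of Acot1, Acot2 or Acot3, and 3.24% of all windows held it. Of the other members with a window, Acot12 also held a match, at -110 to -98. Acot3 has a second start 7 bases downstream, with the same matches. A match of letters is not a measured site. Of the 9 members, 8 had a RefSeq window.

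Alkbh5 was at 0.476 ± 0.0322 FPKM in HKO and 16.5 ± 1.56 FPKM in flox livers (SD, n = 3 each). Libraries held 14907384 to 17034754 reads as recovered from the FPKM, and HKO library 1 stood apart from the other libraries on the first principal component, at -38.6 against -15.7 and -4.51 for HKO libraries 2 and 3 and 13.7 to 22.7 for flox. Hepatocyte markers were abundant (summed 48533 to 51266 FPKM in HKO and 43213 to 52221 FPKM in flox livers), and adipocyte and skeletal muscle markers were at or near 0. Of the 6 hepatocyte markers 3 were higher and 3 lower in HKO, and 0 passed by limma with BH adjustment. Alb, most of the sum, lay wholly above flox, at means of 36341 and 28517 FPKM, HKO first. Apoa1 lay wholly below, at 6822 and 10724 FPKM, where 12.8% and 12.6% of all tested genes lay wholly above and below. Summed red cell markers were lower in HKO, at 105 to 209 FPKM against 352 to 674 FPKM in flox, with 5 of 5 tested markers wholly below flox, against 12.6% of all tested genes, and 1, Hbb-bt, called lower, against 0.220%. Summed cholangiocyte markers were also lower, at 20.7 to 23.3 FPKM in HKO against 26.2 to 36.4 FPKM in flox, and Spp1, the 1 tested marker of the 5, had a log2 fold change of -0.50 and did not pass (limma BH adjusted p = 0.163). The part of either list in the results below was not tested. Kupffer cell, sinusoidal endothelial and stellate cell sums overlapped between the groups, and 0 of their 15 tested markers passed by limma with BH adjustment, with 1, Stab2, lower at a limma p under 0.05 before it. In bulk liver, fewer cells of a type and less RNA per cell cannot be told apart.

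In HKO livers 1 of the 9 thioesterases, Acot1, fell and 0 rose by limma with BH adjustment at 0.05 over the 10453 tested genes, of which 0.220% were called lower and 0.268% higher. In 7 members the HKO mean was lower and in 2, Acot9 and Acot13, it was higher. Libraries of the groups did not overlap in 4 members, with Acot1, Acot2 and Acot8 below flox and Acot13 above, where 12.6% of tested genes lay wholly below and 12.8% wholly above. At an unadjusted p under 0.05 by limma, these same 3 members were lower and this 1 higher, against 8.44% and 8.57% of tested genes. The median log2 fold change of FPKM + 1, HKO minus flox, was -0.60 over the 9 members and -0.02 over all tested genes.

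**Figure D1:**
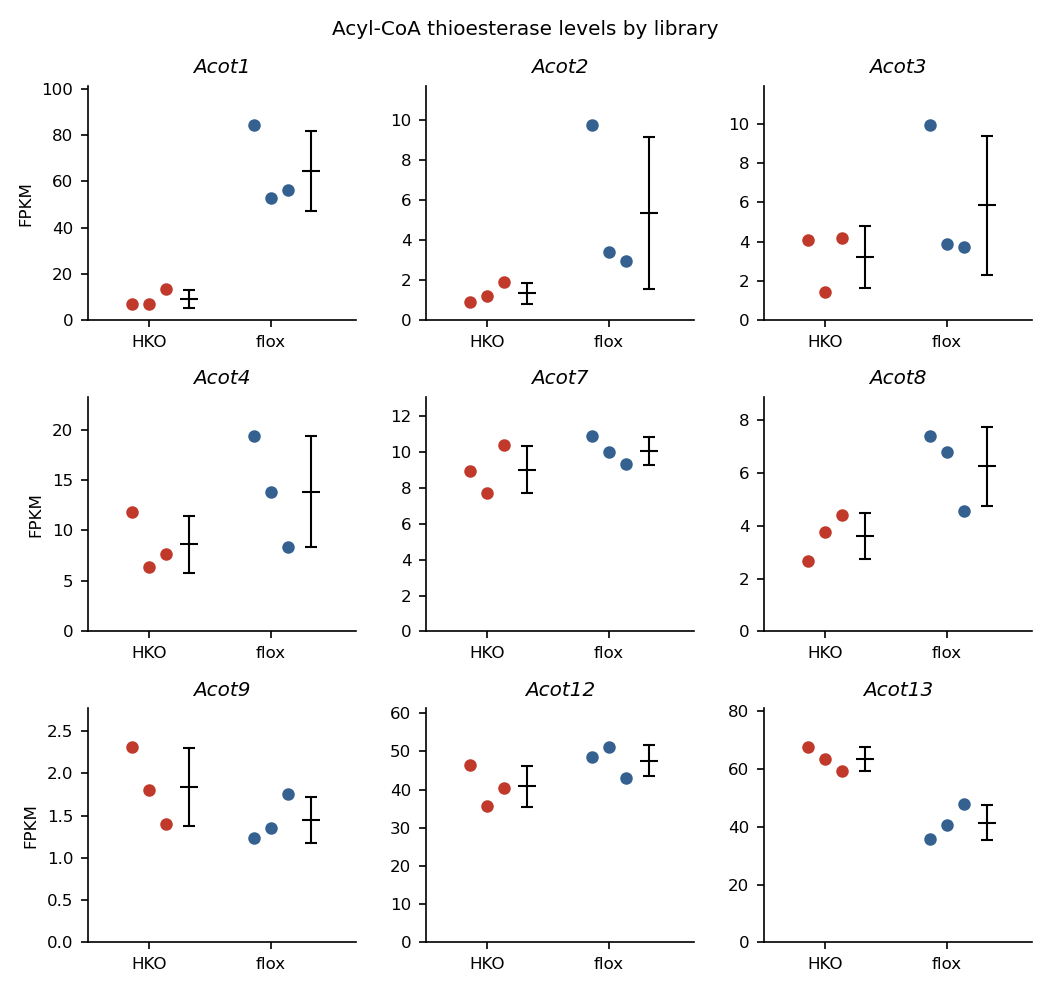
FPKM of each thioesterase in the 3 HKO (red) and 3 flox (blue) libraries, 1 point per library, with the mean and SD beside the points. Acot1 lies at 7.05 to 13.8 FPKM in HKO and 53.0 to 84.4 FPKM in flox livers, and Acot13 is the member with every HKO library above every flox library.

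Acot1, the cytosolic enzyme for long-chain acyl-CoA (gene 26897, chromosome 12, 84009502 to 84017670, plus strand), was at 7.05, 7.10 and 13.8 FPKM in HKO libraries 1 to 3 and at 84.4, 53.0 and 56.2 FPKM in flox libraries 1 to 3. The highest HKO library stood well below the lowest flox library. Its HKO mean of 9.31 ± 3.87 FPKM was 14.4% of the flox mean of 64.5 ± 17.2 FPKM (SD, n = 3 each), with a log2 fold change of -2.70 (SE 0.29, 95% interval -3.37 to -2.03) and a limma BH adjusted p of 0.0297. These levels rest on 701 reads over the HKO libraries and 4706 over the flox libraries. The call rested on single libraries, with limma BH adjusted p-values of 0.0931 without HKO library 1, 0.0868 without HKO library 2, 0.125 without flox library 1 and 0.115 without flox library 2, while the fold change stayed between -2.99 and -2.49 with any library left out. It was also lost with no filter on low genes (adjusted p = 0.111).

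Acot2, the mitochondrial enzyme of the same type (chromosome 12, 83987861 to 83993877), was at 0.909, 1.21 and 1.91 FPKM in HKO and at 9.75, 3.44 and 2.94 FPKM in flox livers. The groups did not overlap, and flox library 1 was far above the other flox libraries. Acot2 had a log2 fold change of -1.31 (SE 0.39, 95% interval -2.22 to -0.40), with a limma BH adjusted p of 0.166, and it was -0.86 without flox library 1. Only 144 reads over the 3 HKO libraries stand behind the HKO level, with a 95% Poisson interval of 121 to 170 that covers counting error only.

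Acot4, a peroxisomal enzyme that in mouse acts on succinyl-CoA, was at 11.8, 6.35 and 7.66 FPKM in HKO and at 19.4, 13.9 and 8.32 FPKM in flox livers. Acot3, a peroxisomal enzyme for medium- and long-chain acyl-CoA, was at 4.07, 1.43 and 4.19 FPKM in HKO and at 9.94, 3.90 and 3.74 FPKM in flox livers. Both overlapped between the groups, with log2 fold changes of -0.60 (95% interval -1.35 to 0.16) for Acot4 and -0.66 (-1.65 to 0.33) for Acot3. Without flox library 1 these were -0.33 and -0.27, and for Acot3 -0.30 without HKO library 2, while for Acot4 the value was -0.90 without flox library 3. Flox library 1 held the highest value of all 6 libraries for Acot1, Acot2, Acot3 and Acot4, and also for Acot7 and Acot8, which lie outside the cluster.

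Acot8, the peroxisomal enzyme with the broadest range of substrates, bile acid CoA esters among them (chromosome 2, 164792768 to 164820202, minus strand), was at 2.67, 3.75 and 4.41 FPKM in HKO and at 7.39, 6.78 and 4.56 FPKM in flox livers. HKO library 3 and flox library 3 came close without overlapping. Its log2 fold change of -0.65 (SE 0.21) did not pass (limma BH adjusted p = 0.192). Snx21 and Zswim3, which overlap Acot8 on the other strand, averaged 3.95 and 0.568 FPKM in HKO and 4.90 and 0.815 FPKM in flox livers.

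Acot13, the small enzyme of the hotdog-fold type known to bind phosphatidylcholine transfer protein (gene 66834, chromosome 13, 24817955 to 24831489, minus strand), was at 67.5, 63.5 and 59.2 FPKM in HKO and at 35.9, 40.4 and 47.9 FPKM in flox livers. Every HKO library lay above every flox library. The mean was 63.4 ± 4.14 FPKM in HKO and 41.4 ± 6.06 FPKM in flox livers (SD, n = 3 each), or 153% of the flox level. The log2 fold change of 0.61 (SE 0.15, 95% interval 0.26 to 0.96) did not pass (limma BH adjusted p = 0.116). Over the 16 alternatives its fold change was 0.52 to 0.72 and its adjusted p 0.095 to 0.337.

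Acot12, the cytosolic acetyl-CoA hydrolase that is abundant in liver (chromosome 13, 91741505 to 91786148, plus strand), was at 46.4, 35.8 and 40.4 FPKM in HKO and at 48.6, 51.2 and 43.1 FPKM in flox livers. Acot7, a cytosolic enzyme for long-chain acyl-CoA best known from brain, was at 8.97, 7.72 and 10.4 FPKM in HKO and at 10.9, 9.97 and 9.32 FPKM in flox livers. Acot9, a mitochondrial enzyme encoded on the X chromosome, was at 2.31, 1.81 and 1.40 FPKM in HKO and at 1.23, 1.35 and 1.75 FPKM in flox livers. All 3 overlapped between the groups, with 95% intervals of the log2 fold change of -0.57 to 0.13 for Acot12, -0.48 to 0.18 for Acot7 and -0.18 to 0.60 for Acot9. None passed, at limma BH adjusted p-values of 0.485, 0.623 and 0.55. Without HKO library 2 the log2 fold changes of Acot12 and Acot7 were -0.13 and -0.05, and without HKO library 1 that of Acot9 was 0.09.

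**Figure D2:**
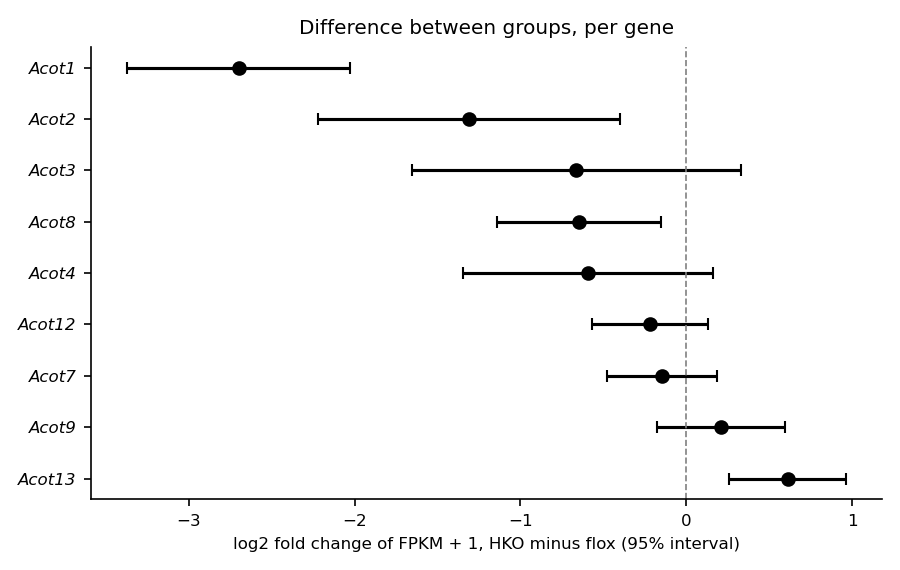
Log2 fold change of FPKM + 1 between HKO and flox livers for each thioesterase, with the 95% interval from limma. Acot1 lies farthest from 0, at -2.70, Acot2, Acot8 and Acot13 have intervals that leave out 0 before adjustment, and the other 5 cross it.

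The rest of the family was near or at 0. Acot6 averaged 0.432 ± 0.0589 FPKM in HKO and 0.427 ± 0.171 FPKM in flox livers, and Acot11, an enzyme known from brown fat, 0.389 ± 0.167 and 0.642 ± 0.146 FPKM in the same order (SD, n = 3 each). Acot5 and Acot10 were listed at 0 in all 6 libraries. Acot5 shares a run of 195 identical coding bases with Acot3. Of its read-length transcript windows, 3.36% also occurred in a transcript of another gene. The coding sequences of Acot10 and Acot9 were identical at 97.2% of bases, but their longest identical run was 109 bases, shorter than a read. Acot10 shared 19.88% of its windows, with Gm49685 only, and Acot9 shared 0.0%. Why Acot5 and Acot10 were listed at 0 was not tested.

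The order of the members differed between the groups. In HKO livers the order by mean level per length was Acot13, Acot12, Acot1, Acot7, Acot4, Acot8, Acot3, Acot9 and Acot2, and in flox livers Acot1, Acot12, Acot13, Acot4, Acot7, Acot8, Acot3, Acot2 and Acot9. Acot1 took place 5, 4 and 3 among the 9 in HKO libraries 1 to 3 and place 1 in each flox library. Neighbours in the HKO order overlapped in range from Acot1 to Acot4 and from Acot8 to Acot2. In flox livers Acot12 overlapped Acot13, Acot4 overlapped Acot7, and Acot8, Acot3 and Acot2 overlapped in turn. As a share of the summed FPKM of the 9 genes, Acot1 made up 4.65%, 5.52% and 9.61% in HKO and 37.1%, 28.8% and 31.6% in flox livers. Acot13 made up 44.5%, 49.3% and 41.3% in HKO and 15.8%, 22.0% and 26.9% in flox livers.

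The summed FPKM of all 9 genes was 152, 129 and 143 in HKO and 227, 184 and 178 in flox livers, and every HKO sum lay below every flox sum. Without Acot1 the sums overlapped, at 144.6, 121.6 and 129.6 FPKM in HKO and 143.0, 130.9 and 121.6 FPKM in flox livers, and averaged 131.9 ± 11.7 and 131.8 ± 10.7 FPKM in the same order (SD, n = 3 each). The difference in the family's summed level between the groups was thus carried by Acot1, with the higher level of Acot13 and the lower levels of other members cancelling in the remainder. Counted as RPM, reads scaled to library size but not to gene length, the sum without Acot1 was 278, 214 and 248 in HKO and 346, 299 and 250.3 in flox livers, with overlapping groups and an HKO mean at 82.6% of flox, since Acot13 has a short transcript and weighs less in reads.

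**Figure D3:**
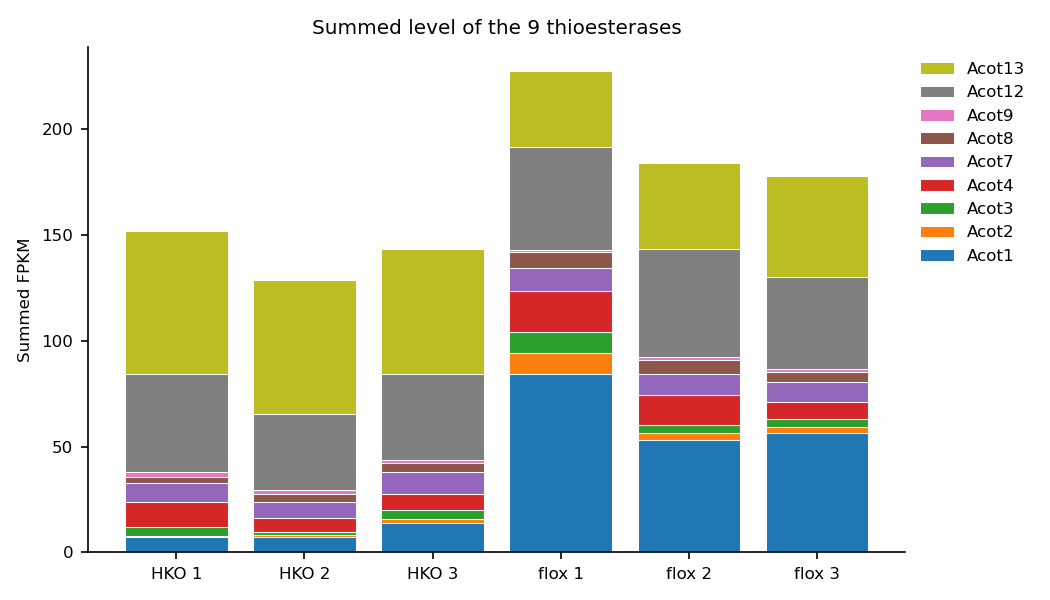
Summed FPKM of the 9 thioesterases in each library, with HKO libraries left of flox libraries and 1 colour per gene. The sum is 129 to 152 FPKM in HKO and 178 to 227 FPKM in flox livers, and the Acot1 segment at the base takes 4.65% to 9.61% in HKO and 28.8% to 37.1% in flox livers.

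By compartment, the cytosolic sum of Acot1, Acot7 and Acot12 was 59.2 ± 7.49 FPKM in HKO and 122 ± 18.9 FPKM in flox livers, and without Acot1 it was 49.9 ± 5.96 and 57.7 ± 4.63 FPKM in the same order. The mitochondrial sum of Acot2, Acot9 and Acot13 was 66.6 ± 4.09 FPKM in HKO and 48.2 ± 3.87 FPKM in flox livers, and without Acot13 it was 3.18 ± 0.147 and 6.82 ± 3.60 FPKM. As RPM, not scaled to gene length, the sum with Acot13 was 52.5, 49.5 and 47.3 in HKO and 48.3, 37.7 and 42.5 in flox livers, with overlapping groups. The peroxisomal sum of Acot3, Acot4 and Acot8 was 15.5 ± 3.58 FPKM in HKO and 25.9 ± 10.1 FPKM in flox livers, with overlapping libraries (SD, n = 3 each throughout). These sums were not tested.

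Reads summed over Acot1 to Acot6 were 1136, 780 and 1033 in HKO and 4172, 2151 and 2268 in flox livers. As RPM this was 60.8 in HKO and 184 in flox livers, or 33.05%. Without Acot1 the cluster was at 60.0, 31.5 and 47.4 RPM in HKO and 127, 72.2 and 50.8 RPM in flox livers, with overlapping groups and flox library 1 far above the rest. Within each library the ratio of Acot1 to Acot2 in FPKM was 7.76, 5.85 and 7.21 in HKO and 8.65, 15.4 and 19.1 in flox livers. The ratio of Acot1 to Acot4 was 0.596, 1.12 and 1.798 in HKO and 4.36, 3.83 and 6.76 in flox livers, and that to Acot3 was 1.73 to 4.96 in HKO and 8.49 to 15.1 in flox livers. All 3 ratios were lower in each HKO library than in each flox library, so Acot1 stood lower relative to its neighbours as well as in level. The ratios were not tested, and the reads that Acot1 shares with Acot2 and Acot3 enter them.

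**Figure D4:**
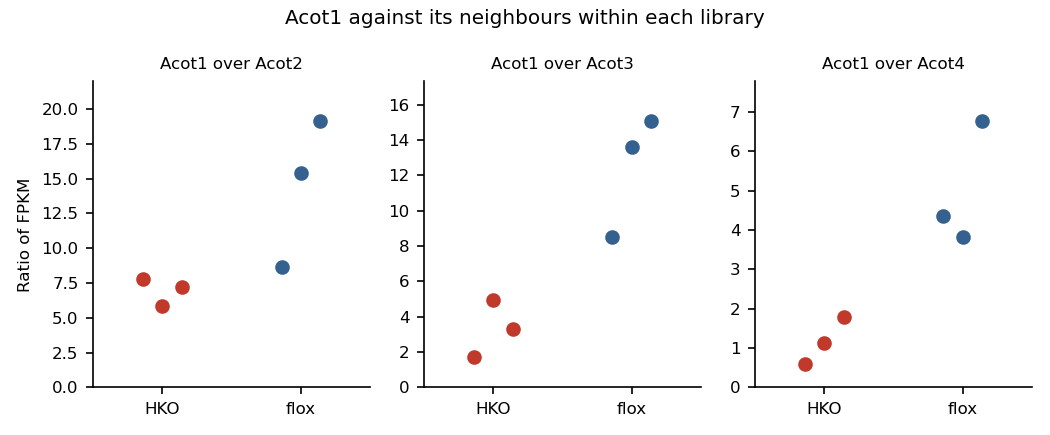
Ratio of Acot1 FPKM to that of Acot2, Acot3 and Acot4 within each library, 1 point per library, HKO in red and flox in blue. The groups do not overlap in any of the 3 ratios, and come closest for Acot2, at 7.76 in HKO library 1 and 8.65 in flox library 1.

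Of the tested genes within 100 kb of the cluster, Numb on one side averaged 6.42 ± 0.515 FPKM in HKO and 6.38 ± 0.477 FPKM in flox livers, and Elmsan1 on the other 1.54 ± 0.354 and 1.65 ± 0.081 FPKM (SD, n = 3 each). Their log2 fold changes of 0.01 and -0.07 had 95% intervals of -0.28 to 0.29 and -0.41 to 0.26, and both changed sign when 1 library was left out.

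The 5 tested genes whose log2(FPKM + 1) ran closest to that of Acot1 over the 6 libraries were Hsdl2, Arl4a, Elmod3, Mup8 and Phrf1, with Pearson correlations of 0.9988, 0.9983, 0.9981, 0.998 and 0.9955. The 6 libraries fall into the 2 groups, and the values share that split, so they are a description of likeness with no test. HSDL2 is a peroxisomal protein of the dehydrogenase family, and Hsdl2 averaged 12.9 ± 1.96 FPKM in HKO and 32.5 ± 4.49 FPKM in flox livers. For Acot13 the closest genes were Ccdc171, Tmem144 and Rida, at 0.9984, 0.9976 and 0.9967. Rida, which encodes a deaminase of reactive imines, averaged 549 ± 62.2 FPKM in HKO and 329 ± 66.4 FPKM in flox livers (SD, n = 3 each).

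Among enzymes that make the substrates of the thioesterases, 1 rose and 0 fell. Of 15 tested acyl-CoA synthetases 6 were higher and 9 lower in HKO livers (median log2 fold change -0.02). Before adjustment, 5 were higher and 5 lower at a limma p under 0.05, against 8.57% and 8.44% of all tested genes. The groups did not overlap in 5 with HKO above and in 5 with HKO below, against 12.8% and 12.6%. By limma with BH adjustment 1 rose, against 0.268% of all tested genes. This was Acss2, the cytosolic enzyme that makes acetyl-CoA from acetate, at 99.4 ± 21.9 FPKM in HKO and 37.6 ± 4.24 FPKM in flox livers (log2 1.36, limma BH adjusted p = 0.0441, and 0.0657 to 0.179 with any 1 library left out, so that the call rests on each). Acsl1, the main long-chain acyl-CoA synthetase of liver, was at 82.5 ± 19.2 FPKM in HKO and 256 ± 69.0 FPKM in flox livers (log2 -1.61), and did not pass (limma BH adjusted p = 0.0525). It passed in 5 of 16 alternatives, at limma BH adjusted p-values of 0.0477 without flox library 3, 0.0437 with a minimum mean of 5 FPKM, 0.0362 as TPM, 0.0297 by voom and 0.0386 when rescaled to the sum of recovered reads. The very-long-chain synthetase Slc27a2 was at 568 ± 70.7 and 906 ± 169 FPKM in the same order (log2 -0.66, limma BH adjusted p = 0.154).

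Genes that make, move or degrade coenzyme A, the other product of the thioesterase reaction, did not pass in either direction, with 0 of 15 tested, 5 higher and 10 lower (median log2 -0.06). Before adjustment, 1 was higher and 4 were lower at a limma p under 0.05, against 8.57% and 8.44% of all tested genes. Slc25a42, the mitochondrial coenzyme A carrier, was at 35.98 ± 2.86 FPKM in HKO and 65.9 ± 6.70 FPKM in flox livers (log2 -0.85, limma BH adjusted p = 0.0579, passing in 2 of 16 alternatives). The peroxisomal CoA hydrolase Nudt7 was at 79.4 ± 15.4 and 130 ± 7.18 FPKM (log2 -0.72) and the pantetheinase Vnn1 at 9.62 ± 0.646 and 21.9 ± 11.3 FPKM (log2 -0.99, and -0.62 without flox library 3). Of 6 other tested thioesterases 0 passed, 3 were higher and 3 lower (median log2 0.04), and 1 was higher and 1 lower at a limma p under 0.05 before adjustment, where the shares of all tested genes are again 8.57% and 8.44%. Among them Baat, a relative of the Acot1 cluster that joins bile acids to amino acids, was at 51.8 ± 3.27 and 68.2 ± 3.84 FPKM (log2 -0.39), the palmitoyl-protein thioesterase Ppt1 at 10.2 ± 0.95 and 7.57 ± 0.603 FPKM (log2 0.39) and the acyl-protein thioesterase Lypla2 at 27.7 ± 9.50 and 38.1 ± 6.02 FPKM (log2 -0.50, and -0.19 without HKO library 1), HKO first in each pair.

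Genes that use acyl-CoA in beta-oxidation were mostly lower, where of all 10453 tested genes 5431 were lower and 5022 higher. Of 20 tested peroxisomal genes 17 were lower and 3 higher (median log2 -0.29). Before adjustment, 7 were lower and 1 higher at a limma p under 0.05, against 8.44% and 8.57% of all tested genes. The groups did not overlap in 8 with HKO below and in 3 with HKO above, against 12.6% and 12.8%. By limma with BH adjustment 1 fell and 1 rose, against 0.220% and 0.268% of all tested genes. The thiolase Acaa1b fell (203 ± 26.5 FPKM in HKO and 523 ± 123 FPKM in flox livers, log2 -1.34) and the transporter Abcd2 rose (6.53 ± 0.765 and 1.73 ± 0.793 FPKM, log2 1.499), at limma BH adjusted p-values of 0.0475 and 0.0424. Both calls were lost without HKO library 1 (0.113 and 0.121), without HKO library 2 (0.145 and 0.131), without HKO library 3 (0.0752 and 0.0663), without flox library 1 (0.157 and 0.178) and without flox library 2 (0.148 for both), and Acaa1b also without flox library 3 (0.0573). The carnitine acetyltransferase Crat, which takes acetyl groups from coenzyme A, was at 3.83 ± 1.54 FPKM in HKO and 17.8 ± 6.88 FPKM in flox livers (log2 -1.96, limma BH adjusted p = 0.0646). Of 18 tested mitochondrial genes 12 were lower and 6 higher (median log2 -0.26) and 0 passed by limma with BH adjustment, while before adjustment 7 were lower and 1 higher at a limma p under 0.05, against 8.44% and 8.57% of all tested genes. Of the 18, the carnitine carrier Slc25a20 was at 45.8 ± 11.9 and 83.0 ± 9.42 FPKM (log2 -0.87), HKO first. The dehydrogenase Acadvl was at 22.5 ± 8.89 and 44.1 ± 19.9 FPKM with overlapping groups (log2 -0.90, and -0.55 without HKO library 2). Cpt1a, which starts mitochondrial uptake, was at 89.2 ± 14.6 and 145 ± 41.3 FPKM in the same order, also with overlapping groups (log2 -0.66). This value was -0.49 without flox library 1 and -0.91 without flox library 3.

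Of 22 tested genes in the list of PPAR-alpha and its targets, 21 were lower in HKO livers, with a median log2 fold change of -1.10 against -0.02 over all tested genes. By limma with BH adjustment 2 fell, Acaa1b, which is in both lists, and the lipid droplet protein Plin5 (9.72 ± 3.73 FPKM in HKO and 41.8 ± 9.18 FPKM in flox livers, log2 -2.03, adjusted p = 0.0373, and 0.111 to 0.161 without HKO library 1 or 2 or flox library 1 or 2), against 0.220% of all tested genes. The groups did not overlap in 17 of the 22, with HKO below, against 12.6% of all tested genes. In 1, Cd36, HKO lay wholly above, at 3.93 ± 1.14 FPKM against 2.21 ± 0.774 FPKM in flox livers (log2 0.62), against 12.8% of all tested genes. Cyp4a14 overlapped between the groups, at log2 -0.03. The lipid droplet protein Plin2 was at 112 ± 41.3 and 341 ± 140 FPKM (log2 -1.58) and the fatty acid binding protein Fabp1 at 2518 ± 1884 and 5622 ± 1144 FPKM (log2 -1.57), HKO first, and neither passed (limma BH adjusted p of 0.0997 and 0.315). Fabp1 was at 563 FPKM in HKO library 1, against 2669 and 4322 FPKM in HKO libraries 2 and 3, and its log2 fold change was -0.70 without that library. Ppara itself was at 30.8 ± 8.10 FPKM in HKO and 40.8 ± 12.9 FPKM in flox livers (log2 -0.37, 95% interval -1.06 to 0.31). This value was -0.17 without HKO library 2, -0.23 without flox library 1 or flox library 2, and -0.66 without flox library 3. On FPKM + 1, the log2 fold change of Acot1 lay below that of every tested gene of this list. Those of Acot3 (-0.66) and Acot4 (-0.60) lay above the list's median. The added 1 shrinks fold changes of low genes such as Pdk4, at 0.461 ± 0.0649 FPKM in HKO and 4.22 ± 4.47 FPKM in flox livers (log2 -1.50).

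**Figure D5:**
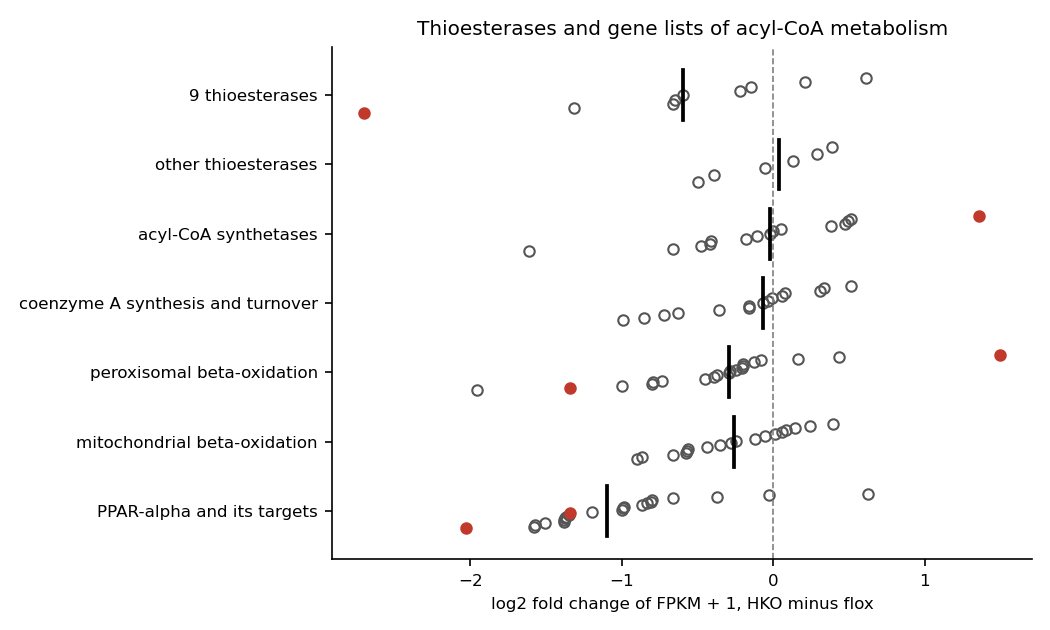
Log2 fold change of FPKM + 1, HKO minus flox, of each tested gene in the 9 thioesterases and in 6 lists of acyl-CoA metabolism, 1 point per gene, filled red where limma passed with BH adjustment, with the list median as a bar. Acot1, at -2.70, is the leftmost point, and the bars run from -1.10 for PPAR-alpha and its targets to 0.04 for the other thioesterases.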

How the data were processed

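Liver RNA was sequenced in 6 libraries, 3 Alkbh5-HKO and 3 Alkbh5flox/flox. Libraries of poly(A) RNA were read as pairs of 150 bases, per the labels' protocols. Per the series text, pairs were aligned to GRCm38.p6 with HISAT2 2.0.5 and counted with featureCounts 1.5.0-p3, while CASAVA and DESeq2 1.20.0 stand in the submitters' processing notes. The sources used here give neither the strand setting nor how reads with several matches were counted. The deposited values are FPKM, per kilobase of the deposited gene length and scaled to a library size set by the authors. In each library 100% of values times length came out as whole reads within a tolerance of 0.001. Those reads totalled 14907384 to 17034754 per library, and the authors' library size was 0.925 to 1.08 times that total.

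The 10453 genes at or above a mean of 1 FPKM were fitted with limma 3.58.1 (trend and robust options, R 4.3.3, statmod 1.5.0) on log2(FPKM + 1), HKO minus flox, with Benjamini-Hochberg (BH) adjustment over all of them. The test was run first on simulated reads with known changes. No covariate was used. The members, the gene lists and the tests were chosen with earlier results of these data known. Named genes were the members and the rest of the family, Alkbh5, Ppara, up to 3 members of each list with the largest absolute fold change, the 5 genes most correlated with Acot1 and 3 with Acot13, and tested genes within 100 kb of the Acot1 to Acot6 cluster. All 9 members were matched by symbol. Plin2 is listed at 2 loci, and the one with the higher mean was used. Alternatives covered pseudocount, filter, scaling, eBayes options, voom on the recovered reads, the replicate number and each library left out. Sequence features came from GENCODE M21 transcripts and RefSeq promoters of GRCm38.p6, with Python 3.11.15 and Biopython 1.88. Figures were drawn with matplotlib 3.10.9.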

Additional observations from a re-analysis of the deposited data

How the results depend on the processing

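The rescaling to the sum of recovered reads was added after the data were seen. Acot1 kept its direction in all 16 alternatives (log2 fold change -2.99 to -2.29, limma BH adjusted p of 0.0161 to 0.125) and passed in 10 of them. Against 1 member called lower here, the count was 0 with no filter and 0 with the replicate block, and 0 to 1 with a library left out. The other 8 members passed in none of their alternatives and kept their direction in all that tested them. A pseudocount of 5 gave log2 fold changes of -0.65 for Acot2, -0.37 for Acot3, -0.38 for Acot8 and 0.08 for Acot9. Over all genes, 28 were called higher and 23 lower. With no filter, which tests 23371 genes, these counts were 0 and 1, while 2514 genes had a limma p under 0.05 before adjustment. With a pseudocount of 0.1, 18 genes were called higher. With a library left out, 0 to 29 were called higher and 1 to 38 lower, in fits with fewer samples. The replicate block called 1 higher and 8 lower, 6 of them among the 51 calls, and Acot1 had an adjusted p of 0.0681. Deviations from the group means correlated at 0.153, -0.145 and -0.0514 between same-numbered libraries, and some libraries correlated better with another number. With 3 libraries a group, these values cannot show whether the numbers pair libraries. With a library left out the log2 fold change of Numb ranged from -0.0476 to 0.0492 and that of Elmsan1 from -0.181 to 0.00204, with sign changes whose cause was not tested. Among the other values of named genes outside the set, 404 kept direction and call, 60 lost the call and 7 gained it. Depth limits Acot2 and Acot9 most, with 144 and 165 reads over the 3 HKO libraries.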
